A study of Mus musculus with 28 samples.

Results

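Loss of JMJD3 was examined in Th17n cells that were differentiated under DFMO, over all genes, by setting the 3 KO libraries of that culture against its 4 WT libraries. These 7 libraries were taken by genotype, differentiation and treatment label from the 28 of the series. KO mice carried a floxed JMJD3 gene (Kdm6b) and the CD4cre transgene, JMJD3fl/flCD4cre, which drives Cre from the Cd4 promoter and so deletes in T cells from their double-positive thymic stage on, not only in mature CD4 cells. The control mice are labelled WT, and the labels used here do not say whether they carried Cre or floxed alleles. All animals were of the C57BL/6 strain, and no age is given in the labels used here. Naive CD4 T cells were sorted from spleen by gates that included CD44- and CD25-, so a low CD44 level was a gate at the start of every culture. They were stimulated by plate-bound antibodies to CD3 and CD28, each at 1 µg/ml, with 25 ng/ml IL-6 and 2 ng/ml TGF-beta 1 (Th17n, the non-pathogenic Th17 condition) and with 100 µM DFMO, and live cells were sorted at 68 h. Each of the 3 KO and 4 WT animals also gave a Th17n culture without DFMO (ctrl) and iTreg cultures (TGF-beta 1 at 2 ng/ml alone) with DFMO and without, which serve below as the cultures of comparison.

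JMJD3 is one of a pair of enzymes, with UTX (Kdm6a), that remove methyl groups from lysine 27 of histone H3, a mark that the Polycomb enzyme EZH2 places and that goes with silent genes. DFMO is an irreversible inhibitor of ornithine decarboxylase (Odc1), the enzyme that makes putrescine and so feeds the synthesis of the polyamines spermidine and spermine. Th17 cells arise when IL-6 and TGF-beta act together through STAT3 and SMAD proteins, and they secrete IL-17A and IL-17F, while TGF-beta alone favours the Foxp3+ regulatory fate. The series asks whether polyamine-dependent effects on Th17 cells pass through JMJD3, and the comparison below shows how the genotypes differ once polyamine synthesis is blocked.

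The 7 libraries held 3957830 to 4732039 estimated counts in KO and 3590879 to 4496220 in WT (exact two-sided permutation p = 0.229 over 35 splits, of which the smallest possible is 0.0286; 0.344 adjusted over 3 library measures). They detected 13550 to 13956 genes in KO and 13274 to 13568 in WT (exact permutation p = 0.0857, adjusted 0.257), so every KO library but the lowest lay above every WT library. The mitochondrial share was 0.794% to 1.27% in KO and 0.752% to 1.70% in WT (exact permutation p = 0.771). The first principal component of the 7 libraries held 26.1% of the variance, with KO at 0.538, 0.409 and 0.262 and WT at -0.305, -0.0362, -0.483 and -0.384. The second held 20.6%, with KO at 0.253, -0.0851 and -0.378 and WT at 0.696, 0.065, -0.00607 and -0.545. Within each genotype the second fell in the order of the replicate numbers. The 8 CD4 T cell markers in the files summed to 2996 to 3149 CPM in KO and 2681 to 3038 CPM in WT, with none of them at 0. CPM is the estimated count scaled to library size, with TMM factors. Markers of other cell types were low: B cell markers summed to 19.1 to 20.6 CPM in KO and 14.8 to 20.5 CPM in WT, CD8 T cell markers to 10.9 to 12.4 CPM in KO and 6.10 to 10.1 CPM in WT, and macrophage and monocyte markers to 8.42 to 14.4 CPM in KO and 6.46 to 10.9 CPM in WT. NK cell markers summed to 1.47 to 3.46 CPM in KO and 0.520 to 1.35 CPM in WT. The neutrophil list summed to 10.6 to 22.3 CPM in KO and 0 to 1.61 CPM in WT, and Ly6g alone carried it: 8 of its 9 genes stayed under 1 CPM, and S100a8, S100a9 and Elane were at 0 in all 7 libraries. Whether the CD8, macrophage or NK cell markers had a part in the results below was not tested.

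KO and WT Th17n cells under DFMO differed in few genes. By edgeR's quasi-likelihood test, 112 of 10985 tested genes were called at an adjusted p under 0.05 (1.02%), of which 71 were higher in KO (0.646%) and 41 lower (0.373%). At least a 2-fold change was seen in 25 of the higher and 16 of the lower genes. The median log2 fold change of KO over WT was 0.79 among the genes called higher and -0.87 among those called lower, beside 0.0031 over all tested genes. KO and WT libraries did not overlap in any of the 112 called genes, as in 10.7% of all tested genes. An unadjusted p under 0.05 was reached by 1029 genes (9.37%). The count rested in part on 1 library: without KO replicate 1 the calls fell to 28 (17 higher, 11 lower), all of them among the 112, while the other 6 omissions gave 59 to 129 calls. Every called gene kept its sign when any 1 of the 7 libraries was left out, and 24 genes kept their call in each of those 7 fits. Of these 24, 14 were higher in KO (Ly6g, Enpp2, Ecm1, Tgfb3, Plac8, Serpinb1a, Slamf6, Olfr1033, Gpr18, Skap2, Cnp, Emb, Gimap4 and a Riken gene) and 10 lower (Mid1, Lad1, Cd44, Atf3, Plk2, Ifitm2, Cd200, Dusp4, Nek6 and Klf6). Enpp2, Skap2, Cnp, Mid1, Lad1 and Nek6 are named here after their values were seen.

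**Figure D1:**
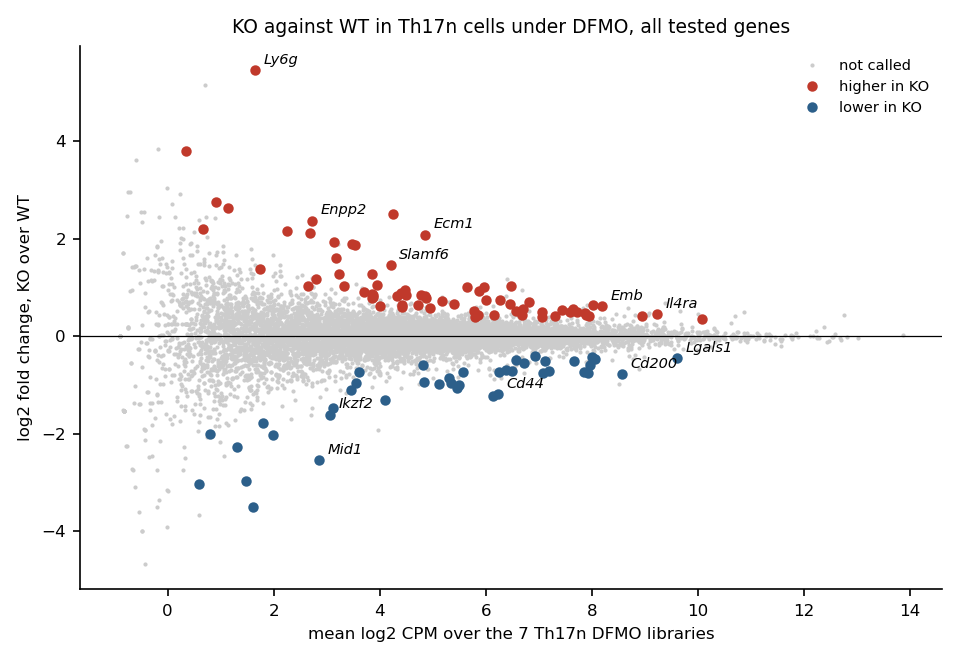
Log2 fold change of KO over WT (vertical axis) against the mean log2 CPM over the 7 Th17n DFMO libraries (horizontal axis) for the 10985 tested genes. Red points are the 71 genes called higher in KO, blue points the 41 called lower and grey points the genes not called, which scatter around a median of 0.0031, with Ly6g the highest called point at 5.46.

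The targeted gene was lower in KO but not lost. Kdm6b (GRCm38 chromosome 11, 69398508 to 69413675, minus strand) had 24.3, 26.7 and 33.05 CPM in KO cultures, against 36.05, 55.1, 63.98 and 62.7 CPM in WT cultures. All 3 KO libraries lay under all 4 WT libraries, although the lowest WT library, replicate 1, stood close to the highest KO library. The fitted log2 fold change was -0.95 ± 0.19, or 1.94-fold lower in KO (edgeR adjusted p = 0.0076), and the call ended without KO replicate 1 (-0.86). Per length the groups overlapped, at 6.53, 5.87 and 6.48 TPM in KO against 5.41, 8.86, 9.51 and 9.28 TPM in WT, and the difference of -0.32 on log2(TPM + 1) was not called (limma adjusted p = 0.738). Reads from the exons that remain after deletion count toward these values, which limits what they say about the genotype.

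The distance between the count and the TPM of Kdm6b was itself followed, a check added after the data were seen. A gene's count divided by its TPM follows the effective length of the transcripts to which kallisto assigned the reads. Relative to the median gene of each library, this ratio for Kdm6b was 1.77, 2.14 and 2.28 in KO, against 3.34, 2.89, 2.998 and 3.12 in WT. It averaged 2.06 ± 0.261 in KO and 3.09 ± 0.191 in WT, with no overlap (log2 difference -0.59, exact two-sided permutation p = 0.0286, the smallest that 35 splits allow), and 2.03% of 10078 genes shifted at least as far. In iTreg ctrl cultures of the same animals it was 2.39 ± 0.0581 in KO and 2.95 ± 0.119 in WT (log2 difference -0.30, exact permutation p = 0.0286). In iTreg DFMO cultures it was 2.18 ± 0.615 in KO and 2.93 ± 0.404 in WT (-0.46, exact permutation p = 0.143), and in Th17n ctrl cultures 2.43 ± 0.483 in KO and 2.58 ± 0.239 in WT (-0.10, exact permutation p = 0.571). Adjusted over the 4 cultures, the exact permutation p was 0.0572 in Th17n DFMO and iTreg ctrl cultures.

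**Figure D2:**
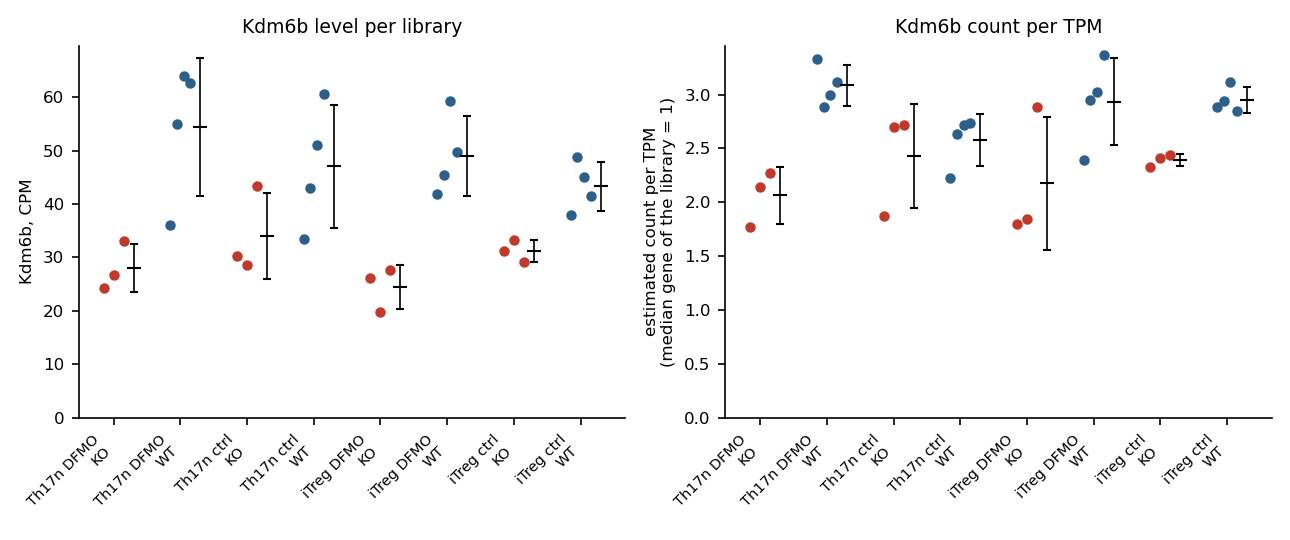
Kdm6b in every library of the 4 cultures, as CPM (left) and as estimated count per TPM relative to the median gene of the library (right). KO is red and WT blue, and black bars give mean ± SD (n = 3 KO and 4 WT). In Th17n DFMO cultures all 3 KO points lie under all 4 WT points in both panels, at 24.3 to 33.0 CPM in KO and 36.0 to 64.0 CPM in WT.

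In the list of H3K27 demethylases and their relatives 0 of 17 tested members rose and 1, Kdm6b, fell. UTX (Kdm6a) had 18.01, 20.3 and 22.9 CPM in KO cultures, against 18.8, 17.8, 14.8 and 23.1 CPM in WT cultures, groups that overlap (log2 fold change 0.13 ± 0.17, edgeR adjusted p = 0.93). None of 20 Polycomb genes was called in either direction, and the methyltransferase gene Ezh2 stood at 129.6 ± 18.3 CPM in KO and 149 ± 20.01 CPM in WT (SD, n = 3 and 4; log2 fold change -0.20 ± 0.11). The Polycomb member of smallest p was Cbx2, which reads the methylated lysine (0.49 ± 0.22, edgeR adjusted p = 0.456). Of 17 genes of the H3K4 methylation complexes none was called. Within 1 Mb of Kdm6b on either side, 55 other genes were tested and 1 was called (1.02% of all tested genes were), the chromatin remodeller gene Chd3 (69343273 to 69369406 on the same chromosome), at 131 ± 20.1 CPM in KO and 88.5 ± 15.8 CPM in WT (log2 fold change 0.56 ± 0.13, edgeR adjusted p = 0.0234), a gene named after its values were seen. Leaving out 1 library ended the call of Chd3 without KO 1 and 3, WT 1 and 3 (0.46 to 0.54). The other 54 had adjusted p of 0.393 or more.

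Genes of naive T cells were changed in both directions. In the naive and memory list 4 of 20 tested genes rose and 2 fell, where 0.646% and 0.373% of all genes did (list median 0.10). Those shares of all genes hold beside every list count below, and a single called member says little about its list. Cd44, the hyaluronan receptor that rises on activated and memory T cells, had 42.8, 50.2 and 47.6 CPM in KO cultures, against 105, 90.9, 106 and 127 CPM in WT cultures. Every KO library lay under every WT library, and the gene was 2.29-fold lower (-1.19 ± 0.17, edgeR adjusted p = 0.000186). CD44 is a surface protein by which the starting cells had been gated, in both genotypes. In bulk RNA, fewer cells of a type and less RNA per cell cannot be told apart, here and in the results below.

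Ly6c1, a surface antigen of the Ly6 family, had 17.1, 6.43 and 19.4 CPM in KO cultures, against 2.12, 2.202, 4.42 and 4.57 CPM in WT cultures (2.12 ± 0.44). It shares sequence with close paralogs, so its share of reads is uncertain. Cd28, the costimulatory receptor of naive T cells, rose in KO, at 227, 222 and 251 CPM in KO cultures, against 162, 178, 157 and 167 CPM in WT cultures. The KO libraries sit tightly above the WT ones, a 1.41-fold difference (edgeR adjusted p = 0.00565). Tcf7 (TCF-1), a transcription factor of naive and memory T cells, had 72.7, 63.6 and 68.4 CPM in KO cultures, against 46.4, 55.9, 51.2 and 48.7 CPM in WT cultures and was 1.35-fold higher, without overlap. Foxp1, which keeps naive T cells quiescent, went the other way, at 95.2, 114 and 132 CPM in KO cultures, against 143, 142, 181 and 181 CPM in WT cultures (-0.51 ± 0.12, edgeR adjusted p = 0.0288). Other naive-cell genes did not pass. Ccr7, a chemokine receptor for homing to lymph nodes, had 887, 913.5 and 761 CPM in KO against 799, 841, 889 and 674 CPM in WT (0.09 ± 0.10). S1pr1, the receptor for egress from lymph nodes, had 48.4, 53.4 and 40.2 CPM in KO against 64.4, 50.4, 47.1 and 55.7 CPM in WT (-0.20 ± 0.18). Il7r, the IL-7 receptor, averaged 25.7 ± 5.10 CPM in KO and 28.3 ± 3.90 CPM in WT. Leaving out 1 library ended the call of Ly6c1 without KO 1 and 3, WT 1 (1.84 to 1.98), of Cd28 without KO 3 (0.44), of Tcf7 without KO 1 and 3, WT 1, 3 and 4 (0.38 to 0.44) and of Foxp1 without KO 1 and 2, WT 3 and 4 (-0.51 to -0.40). Without KO replicate 1, 1 gene of the list rose and 1 fell.

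In the list of adhesion and migration genes 3 of 26 rose, among them Ecm1 and Emb, and 2 fell (Cd44 and Lgals1), with a list median of 0.022. Of all tested genes 0.646% rose and 0.373% fell. Ecm1, a secreted matrix protein, had 79.7, 59.1 and 62.1 CPM in KO cultures, against 9.28, 23.8, 14.04 and 15.3 CPM in WT cultures. That is a 4.23-fold difference with a wide gap between the groups (2.08 ± 0.24, edgeR adjusted p = 6.16e-06). Emb (embigin), a chaperone of monocarboxylate transporters and an adhesion protein, had 352, 369 and 397 CPM in KO cultures, against 205, 259, 235 and 274 CPM in WT cultures (0.62 ± 0.10). Lgals1 (galectin-1), a carbohydrate-binding protein that activated T cells secrete, had 656, 595 and 711 CPM in KO cultures, against 786, 966, 949 and 887 CPM in WT cultures and was 1.37-fold lower, the groups standing apart, although the call ended without KO 1 and 2 (-0.46 to -0.39). Itga7, the laminin receptor subunit, which the list does not hold, had 72.3, 87.6 and 66.7 CPM in KO cultures, against 32.9, 39.6, 27.3 and 49.8 CPM in WT cultures (1.01 ± 0.23), and its call ended without KO 1 and 2, WT 1 and 3 (0.89 to 1.04). Without KO replicate 1, 2 members of the list rose and 1 fell.

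**Figure D3:**
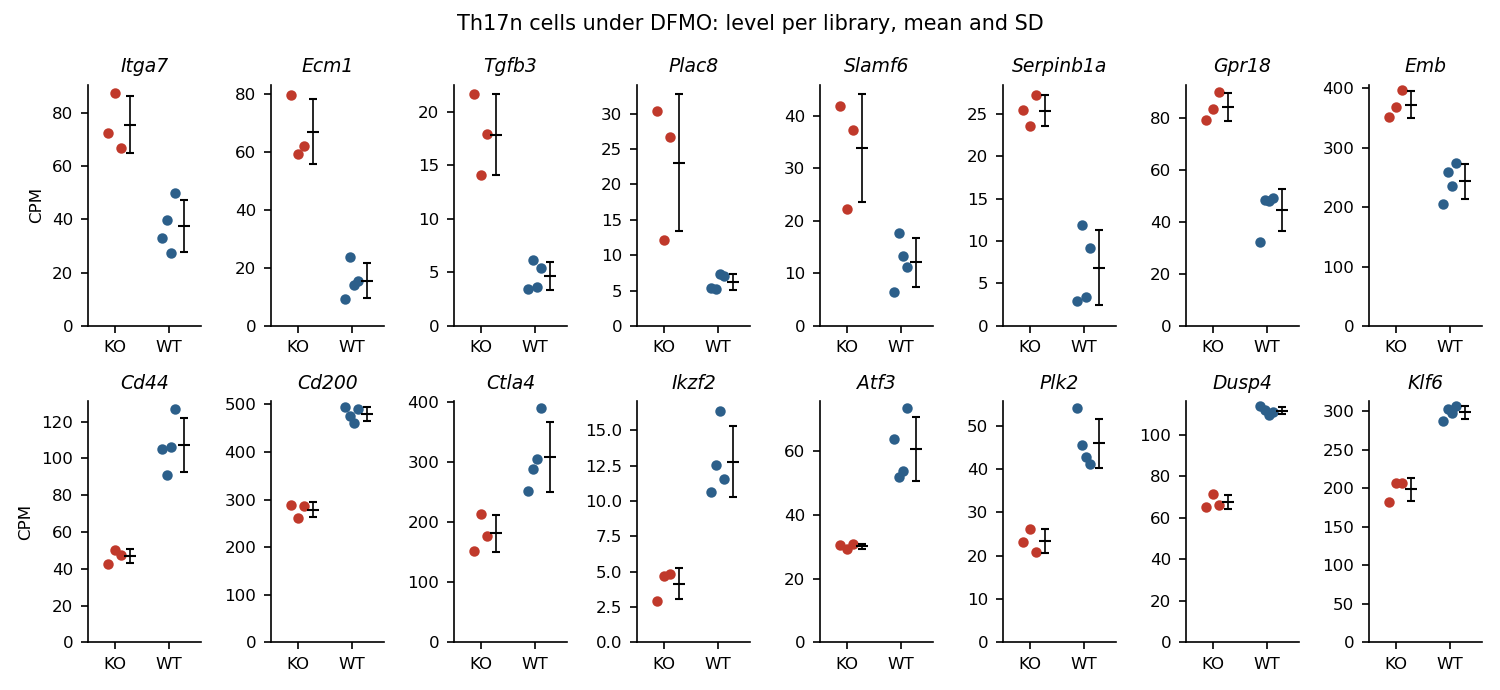
CPM of 16 named genes in each Th17n DFMO library (vertical axis, from 0), KO in red on the left and WT in blue on the right of each panel, with mean ± SD in black (n = 3 KO and 4 WT). The upper row holds genes higher in KO, such as Ecm1 at 59.1 to 79.7 CPM in KO and 9.28 to 23.8 CPM in WT, and the lower row genes lower in KO, such as Cd200 at 260.2 to 289 CPM in KO and 461 to 494 CPM in WT; the genotypes overlap in none of the 16.

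Costimulatory and inhibitory receptors, which sit on the T cell surface and tune activation, split. Of 29 tested, 3 rose (Cd28, Icos and Tnfrsf8) and 3 fell (Cd200, Ctla4 and Timd2), and the list median was -0.11. The shares over all tested genes were 0.646% and 0.373%. Icos, a relative of CD28, had 108, 117 and 128 CPM in KO cultures, against 78.2, 94.5, 63.5 and 91.2 CPM in WT cultures (0.52 ± 0.12, edgeR adjusted p = 0.0221). Tnfrsf8 (CD30), a TNF receptor family member of activated T cells, had 19.4, 19.8 and 29.9 CPM in KO cultures, against 11.1, 12.99, 12.5 and 7.53 CPM in WT cultures (1.06 ± 0.24). Both were higher in all KO libraries than in all WT libraries. Cd200, whose product engages an inhibitory receptor on myeloid cells, had 289, 260.2 and 286 CPM in KO cultures, against 494, 474, 461 and 491 CPM in WT cultures. These are tight groups with a wide gap (-0.79 ± 0.09, edgeR adjusted p = 2.32e-06). Ctla4, the inhibitory receptor that competes with CD28 for its ligands, had 152, 214 and 178 CPM in KO cultures, against 251, 288, 304 and 389 CPM in WT cultures (-0.77 ± 0.14, edgeR adjusted p = 0.00245). So Cd28 and Ctla4, receptors for the same ligands and neighbours of Icos on chromosome 1, differed between the genotypes in opposite directions. Timd2, a TIM family receptor that binds ferritin in mice, had 29.04, 28.2 and 28.2 CPM in KO cultures, against 51.2, 59.02, 65.02 and 63.2 CPM in WT cultures and was 2.09-fold lower. Pdcd1 (PD-1) did not pass, at 132.8 ± 9.26 CPM in KO and 129 ± 6.86 CPM in WT (0.04 ± 0.12). Omission of 1 library ended the call of Icos without KO 1, 2 and 3, WT 1 and 3 (0.42 to 0.58), of Tnfrsf8 without KO 3, WT 1 and 4 (0.82 to 1.05), of Ctla4 without KO 1 (-0.66) and of Timd2 without KO 1 (-1.08), and without KO replicate 1 the list held 2 genes that rose and 1 that fell.

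Of 9 SLAM family genes 1 rose, Slamf6 (Ly108), a self-ligand receptor of lymphocytes, with 41.9, 22.3 and 37.3 CPM in KO cultures, against 6.36, 17.6, 13.3 and 11.3 CPM in WT cultures. KO replicate 2 stood nearest to WT, and the groups did not overlap (1.46 ± 0.25, edgeR adjusted p = 0.0014). Together with Icos and Tcf7 it made up the 3 of 16 follicular helper T cell genes that rose, of which 1 rose without KO replicate 1, and none fell. Genes of the T cell receptor complex and its first signalling steps were not called, 0 of 28, with 20 of 28 estimates above 0 (median 0.12, beside 0.0031 for all genes). The member of smallest p was Cd3d, at 294 ± 10.5 CPM in KO and 236 ± 17.9 CPM in WT (0.31 ± 0.09, edgeR adjusted p = 0.111).

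Signature cytokine genes of Th17 cells and the defining factor of Treg cells showed no difference that passed. Il17a had 26.6, 42.8 and 34.5 CPM in KO cultures, against 36.8, 27.5, 45.3 and 112 CPM in WT cultures, overlapping groups with 1 WT library far above the rest (-0.68 ± 0.42, edgeR adjusted p = 0.693). Il17f, the gene of its close relative, had 545, 626 and 620.1 CPM in KO cultures, against 259, 642, 372 and 733 CPM in WT cultures (0.25 ± 0.32). Il23r, the IL-23 receptor, was at 3.83 to 5.19 CPM in KO and 3.18 to 5.06 CPM in WT (0.02 ± 0.36). Standard errors of these estimates were 0.32 to 0.42 on the log2 scale, so differences of that size could not be called at this depth and number of animals. Rora, a nuclear receptor of Th17 cells, had 41.4, 69.5 and 57.3 CPM in KO against 83.2, 108, 92.1 and 124 CPM in WT (-0.87 ± 0.26, edgeR adjusted p = 0.121), and the chemokine receptor gene Ccr6 had 36.2, 40.3 and 42.9 CPM in KO against 47.4, 64.5, 52.3 and 76.4 CPM in WT (-0.59 ± 0.32, adjusted p = 0.608 by edgeR). Neither passed, although the groups of both did not overlap. Of 27 tested Th17 programme genes 2 rose and none fell: Tgfb3, and Ctsw (cathepsin W), a protease gene that T cells and NK cells express, with 102, 89.8 and 88.2 CPM in KO cultures, against 40.02, 54.6, 44.99 and 45.5 CPM in WT cultures (1.01 ± 0.23). The call of Ctsw ended in 6 of the 7 fits that left out 1 library, without KO 1, 2 and 3, WT 1, 3 and 4 (0.94 to 1.04), and Tgfb3 alone of the list rose without KO replicate 1.

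Foxp3, the transcription factor of regulatory T cells, had 34.4, 37.1 and 33.3 CPM in KO cultures, against 28.9, 38.8, 40.8 and 39.8 CPM in WT cultures (-0.09 ± 0.21, edgeR adjusted p = 0.984). In the Treg programme list 2 of 24 rose (Ecm1 and Icos) and 4 fell (Ikzf2, Ctla4, Dusp4 and Gpr83), with a median of -0.10. Over all tested genes 0.646% rose and 0.373% fell. Ikzf2 (Helios), a transcription factor of regulatory T cells, had 2.93, 4.700 and 4.84 CPM in KO cultures, against 10.6, 12.6, 16.4 and 11.6 CPM in WT cultures. It was 3.06-fold lower with well-separated groups (-1.61 ± 0.32, edgeR adjusted p = 0.00613), though on log2(TPM + 1) it was not called (-0.64, limma adjusted p = 0.696). Gpr83, a receptor gene expressed by regulatory T cells, had 86.9, 91.3 and 73.9 CPM in KO cultures, against 124, 118, 135 and 118 CPM in WT cultures (-0.56 ± 0.12). Leaving out 1 library ended the call of Ikzf2 without KO 1 (-1.42) and of Gpr83 without KO 1 and 3, WT 3 (-0.59 to -0.47), and without KO replicate 1 the list held 1 gene that rose and 1 that fell.

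Other helper lineages were touched in single genes. Of 9 Th2 genes 2 rose (Il4ra and Ecm1) and 1 fell (Ccr8). Il4ra, the IL-4 receptor chain, had 770.5, 736 and 649.6 CPM in KO cultures, against 519, 587, 473 and 515 CPM in WT cultures (0.46 ± 0.10). Ccr8, a chemokine receptor of Th2 and regulatory T cells, had 29.3, 30.9 and 23.8 CPM in KO cultures, against 40.3, 56.4, 44.7 and 62.7 CPM in WT cultures (-0.87 ± 0.18). Of 20 Th1 and cytotoxic genes 1 rose, the chemokine Ccl5, at only 3.38, 6.68 and 2.105 CPM in KO cultures, against 0.265, 0.4404, 1.300 and 0.269 CPM in WT cultures, which rests on 52 counts in KO and 9 in WT. Ccl5 and Ccr8 were also the 1 riser and 1 faller among 16 chemokine and receptor genes. With 1 library omitted, calls ended of Il4ra without KO 1 and 2, WT 1, 3 and 4 (0.40 to 0.45), of Ccr8 without KO 1 and 3 (-0.91 to -0.76) and of Ccl5 without KO 1 and 2, WT 1 and 4 (2.20 to 2.85); without KO replicate 1 only Ecm1 of these lists rose.

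Cytokine pathways that act in this culture were compared next. TGF-beta ligands bind the type II and then the type I receptor, which act through SMAD proteins, and endoglin is an accessory receptor. Of 26 genes of this list 2 rose (Tgfb3 and Eng) and 1 fell (Id1), with a median of -0.057, beside 0.646% and 0.373% of all tested genes. Tgfb3, the ligand, had 21.6, 14.1 and 17.9 CPM in KO cultures, against 3.45, 6.17, 3.64 and 5.38 CPM in WT cultures, a 3.79-fold difference without overlap (1.92 ± 0.30, edgeR adjusted p = 0.000969). Eng (endoglin) had 37.1, 32.9 and 26.7 CPM in KO cultures, against 17.5, 13.2, 13.00 and 23.4 CPM in WT cultures (0.95 ± 0.22). Id1, a helix-loop-helix inhibitor and a target of BMP-type SMAD signalling, had 10.6, 9.400 and 9.68 CPM in KO cultures, against 23.1, 22.5, 26.01 and 26.6 CPM in WT cultures and was 2.47-fold lower, the groups standing apart. Inhba, the activin subunit of the same ligand family, had 103, 91.8 and 105 CPM in KO cultures, against 168, 175, 153 and 179 CPM in WT cultures (-0.75 ± 0.18). Leaving out 1 library ended the call of Eng without KO 1 and 2, WT 1, 2 and 3 (0.83 to 0.97), of Id1 without KO 1 and 3 (-1.36 to -1.29) and of Inhba without KO 1, 2 and 3, WT 1, 2, 3 and 4 (-0.80 to -0.69); without KO replicate 1 only Tgfb3 of the list was called.

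Of 20 IL-6 and STAT3 response genes 1 rose, Socs3, the feedback inhibitor of IL-6 signalling, with 309, 278 and 262 CPM in KO cultures, against 204, 241, 197 and 198 CPM in WT cultures (0.43 ± 0.10, edgeR adjusted p = 0.0209). The list's median was 0.16, with 16 of 20 estimates above 0. Of 19 IL-2 and STAT5 response genes 1 rose (Il4ra) and 2 fell (Ikzf2 and Bcl2l1). Bcl2l1, which encodes the survival protein BCL-XL, had 155, 176 and 165 CPM in KO cultures, against 244, 220.2, 234 and 241 CPM in WT cultures (-0.51 ± 0.10), and was the 1 of 25 apoptosis regulators that was called. Il1rn, the secreted antagonist of the IL-1 receptor, had 43.4, 41.8 and 43.4 CPM in KO cultures, against 120.1, 89.8, 112 and 80.7 CPM in WT cultures and was 2.35-fold lower, with KO libraries nearly equal. Il1rn was not called by DESeq2 (adjusted p = 0.0728) or on log2(TPM + 1) (-1.17, limma adjusted p = 0.252). Single omissions ended the call of Socs3 without KO 1 and 2, WT 1, 3 and 4 (0.36 to 0.44), of Bcl2l1 without KO 1 (-0.46) and of Il1rn without KO 1, 2 and 3, WT 1 and 3 (-1.24 to -1.14).

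The called immediate early and AP-1 genes were lower in KO. Immediate early genes are switched on within minutes to hours of receptor signals, and of 34 tested 0 rose and 5 fell (Rgs2, Atf3, Nr4a3, Dusp4 and Klf6), with 21 of 34 estimates under 0 and a median of -0.077. Among all tested genes 0.646% rose, 0.373% fell and 49.1% of estimates were under 0. Atf3, a bZIP transcription factor of the stress response, had 30.4, 29.2 and 30.7 CPM in KO cultures, against 63.6, 51.8, 53.8 and 73.5 CPM in WT cultures. KO libraries were nearly equal and all under the WT ones (-1.01 ± 0.15, edgeR adjusted p = 0.000381). Dusp4, a phosphatase that switches off MAP kinases, had 65.05, 71.5 and 66.1 CPM in KO cultures, against 114, 112, 109 and 111 CPM in WT cultures (-0.72 ± 0.10, edgeR adjusted p = 0.000158). Klf6, a zinc-finger transcription factor, had 182, 207 and 207 CPM in KO cultures, against 287, 303, 298 and 307 CPM in WT cultures (-0.59 ± 0.11). In both genes the groups were tight and far apart. Rgs2, which turns off G-protein signalling, had 5.402, 5.94 and 8.84 CPM in KO cultures, against 13.8, 15.2, 15.6 and 13.99 CPM in WT cultures (-1.11 ± 0.23). Nr4a3, a nuclear receptor induced by T cell receptor signals, had 32.6, 40.3 and 33.5 CPM in KO cultures, against 68.9, 53.1, 69.7 and 43.9 CPM in WT cultures (-0.73 ± 0.18), with WT replicate 4 nearest to KO. Leaving out 1 library ended the call of Rgs2 without KO 1 and 2 (-1.03 to -0.98) and of Nr4a3 without KO 1, 2 and 3, WT 1 and 3 (-0.83 to -0.64), and 3 of the 5 fell without KO replicate 1.

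ATF4 is the transcription factor of the integrated stress response, which cells mount to amino acid shortage and other stress. Of 40 genes of this list 0 rose and 2 fell, Atf3 and Chac1, and 35 of 40 estimates were under 0, with a median of -0.21, beside 49.1% of estimates under 0 and a median of 0.0031 over all genes. Chac1, which degrades glutathione, had 23.4, 19.3 and 22.9 CPM in KO cultures, against 37.6, 29.5, 36.7 and 29.6 CPM in WT cultures (-0.60 ± 0.15, edgeR adjusted p = 0.0479). Its call was marginal, and ended in 6 of the 7 fits without 1 library, without KO 1, 2 and 3, WT 1, 3 and 4 (-0.66 to -0.52). Atf4 itself had 351, 366 and 382 CPM in KO against 461, 433, 472 and 427 CPM in WT (-0.29 ± 0.11, edgeR adjusted p = 0.283), its target Ddit3 (CHOP) averaged 74.0 ± 7.54 CPM in KO and 93.1 ± 8.21 CPM in WT (-0.33 ± 0.14, adjusted p = 0.391 by edgeR), and Trib3, a pseudokinase target, 47.1 ± 3.11 CPM in KO and 63.4 ± 7.37 CPM in WT (-0.43 ± 0.17, adjusted p = 0.338 by edgeR). None of these passed, and the KO libraries were under the WT libraries in all of them. Without KO replicate 1 the list held 1 gene that fell.

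The p53 pathway list had 2 of 28 genes lower and none higher, where 0.373% and 0.646% of all tested genes were. Plk2, a polo-like kinase induced by stress and growth signals, had 23.2, 26.2 and 20.8 CPM in KO cultures, against 54.1, 45.6, 42.9 and 41.2 CPM in WT cultures (-0.97 ± 0.14, edgeR adjusted p = 0.000158), groups that are well separated. Cdkn1a (p21), the inhibitor of cyclin-dependent kinases, had 208, 241 and 214 CPM in KO cultures, against 301, 316, 303 and 308 CPM in WT cultures (-0.47 ± 0.10), and its call ended without KO 1 and 3 (-0.45 to -0.43). Without KO replicate 1 the list held 1 gene that fell, Plk2. Of 21 genes of ER chaperones and the unfolded protein response none was called, and the one of smallest p was Herpud1 (-0.33 ± 0.09, edgeR adjusted p = 0.076).

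Promoters of Atf3, Chac1, Nr4a3 and Plk2, which fell in KO, are shown because each holds a match to at least 1 of the motifs below, a choice made after the matches were seen. Each is given as the 250 bases before the RefSeq start on GRCm38.p6, from 5′ to 3′ on the gene's strand. Capitals in the first pair mark TGATGNAA on either strand (TTNCATCA is its reverse complement), the letters of the composite element that ATF4 binds with C/EBP partners, and capitals in the second pair mark TGACGT on either strand (ACGTCA), the core of cyclic AMP response elements, which bZIP proteins bind. The windows are chr1:191183334-191183583 on the minus strand for Atf3, chr2:119350992-119351241 on the plus strand for Chac1, chr4:48045055-48045304 on the plus strand for Nr4a3 and chr13:110394794-110395043 on the plus strand for Plk2.
Atf3: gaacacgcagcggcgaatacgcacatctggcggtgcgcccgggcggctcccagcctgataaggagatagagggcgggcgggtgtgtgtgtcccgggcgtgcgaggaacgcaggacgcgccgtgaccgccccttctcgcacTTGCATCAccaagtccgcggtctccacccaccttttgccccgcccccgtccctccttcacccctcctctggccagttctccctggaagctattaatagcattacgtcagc
Chac1: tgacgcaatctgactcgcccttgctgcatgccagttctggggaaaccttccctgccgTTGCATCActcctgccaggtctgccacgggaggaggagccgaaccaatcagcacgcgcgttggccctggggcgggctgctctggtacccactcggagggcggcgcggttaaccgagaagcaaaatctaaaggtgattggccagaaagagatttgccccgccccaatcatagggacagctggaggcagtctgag
Nr4a3: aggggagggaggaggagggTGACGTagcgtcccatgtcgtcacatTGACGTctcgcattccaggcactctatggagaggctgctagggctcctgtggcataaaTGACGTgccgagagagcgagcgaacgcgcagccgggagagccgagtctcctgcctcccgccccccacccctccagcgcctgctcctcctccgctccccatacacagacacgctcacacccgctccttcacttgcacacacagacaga
Plk2: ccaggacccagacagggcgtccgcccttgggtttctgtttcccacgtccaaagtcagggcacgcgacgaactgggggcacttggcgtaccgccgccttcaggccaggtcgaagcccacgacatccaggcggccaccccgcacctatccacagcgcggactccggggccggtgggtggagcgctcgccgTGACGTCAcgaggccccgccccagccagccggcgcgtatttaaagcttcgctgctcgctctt
The TGATGNAA match begins at base -110 in Atf3 and at base -193 in Chac1, counted from the start site. Nr4a3 holds 3 matches to TGACGT, and Plk2 holds 2 that overlap in the palindrome TGACGTCA. Among all 27025 genes with a window, 3.91% hold TGATGNAA and 7.29% hold TGACGT. These include genes outside the 10985 tested, from which the called genes came, and the share among tested genes was not taken. Of the genes called lower in KO, 35 of 41 had a window, and 2 held TGATGNAA (5.71%) and 6 held TGACGT (17.1%). Of those called higher, 55 of 71 had a window, and 2 held TGATGNAA (3.64%) and 2 held TGACGT (3.64%). A match is a run of letters in a window and not a measured binding site, and these counts are a description. Neither motif was matched in the windows of Klf6 and Cdkn1a, Rgs2 held 1 TGACGT, Atf3 held 1 as well as its TGATGNAA, and Dusp4 is named only.

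**Figure D4:**
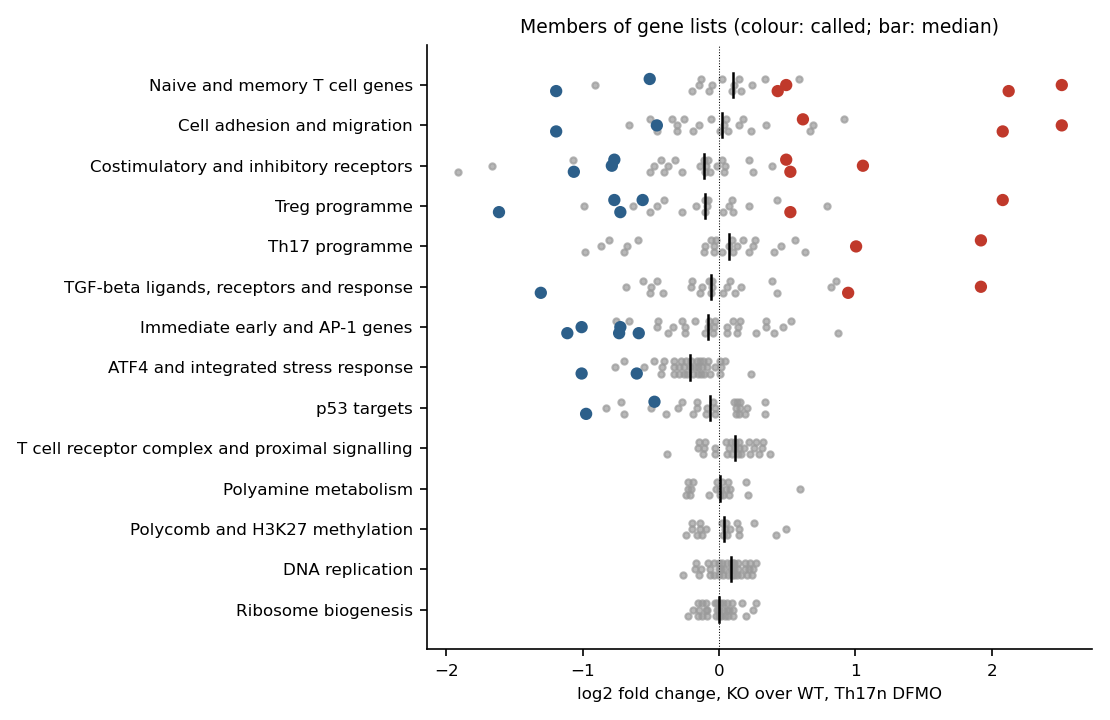
Log2 fold change of KO over WT in Th17n DFMO cultures (horizontal axis) for the tested members of 14 gene lists (rows). Large coloured points are called genes, red for higher and blue for lower in KO, small grey points are genes not called, and black bars are list medians. Immediate early, ATF4 and p53 lists hold called genes on the lower side only, and the bottom 5 lists hold none.

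Large changes outside these pathways were led by Ly6g. Ly6g, a surface antigen that marks neutrophils, had 21.8, 10.1 and 21.7 CPM in KO cultures, against 0, 0.4404, 0.7802 and 0.269 CPM in WT cultures, from 97, 41 and 103 estimated counts in KO and 0, 2, 3 and 1 in WT. The fitted log2 fold change of 5.46 ± 0.52 (edgeR adjusted p = 2.32e-06) is imprecise against so few WT counts, and reads may be shared with close Ly6 paralogs. The other neutrophil markers stayed under 1 CPM, as given above. Serpinb1a, an inhibitor of neutrophil proteases with close paralogs, had 25.4, 23.5 and 27.2 CPM in KO cultures, against 2.92, 11.9, 3.38 and 9.15 CPM in WT cultures (1.86 ± 0.34). Plac8, a small cysteine-rich protein, had 30.4, 12.1 and 26.7 CPM in KO cultures, against 5.301, 5.29, 7.28 and 6.997 CPM in WT cultures (1.90 ± 0.29), again with KO replicate 2 nearest to WT. Cd101, an immunoglobulin-family receptor of T cells and myeloid cells, had 17.3, 17.3 and 15.8 CPM in KO cultures, against 2.39, 6.83, 4.42 and 8.34 CPM in WT cultures (1.599 ± 0.33). Gpr18, a lymphocyte receptor, had 79.2, 83.4 and 89.9 CPM in KO cultures, against 32.3, 48.4, 48.1 and 48.98 CPM in WT cultures (0.92 ± 0.15, edgeR adjusted p = 0.000776). In each of these genes all KO libraries were above all WT libraries. Also among the 25 genes called at least 2-fold higher, not all of which are named here, were 3 others. They were the olfactory receptor locus Olfr1033 (1.03 ± 0.14, whose reads may come from overlapping transcripts), the sulfotransferase gene Ust (1.04 ± 0.25) and the dynein gene Dnah8 (1.27 ± 0.32). Gimap4, a GTPase of lymphocytes, rose 1.44-fold, with 204, 223 and 210.5 CPM in KO cultures, against 147, 142, 152 and 149 CPM in WT cultures. Omitting 1 library ended the call of Cd101 without KO 1 or WT 1 (1.36 to 1.57), of Ust without KO 1 and 3, WT 1, 3 and 4 (0.92 to 1.08) and of Dnah8 without KO 1 and 3, WT 1, 2, 3 and 4 (1.09 to 1.31).

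On the lower side, Ifitm2, of the interferon-induced transmembrane family with near-identical relatives, had 16.4, 21.03 and 20.4 CPM in KO cultures, against 32.3, 36.8, 36.9 and 42.8 CPM in WT cultures (-0.95 ± 0.16, edgeR adjusted p = 0.00192). Hs3st3b1, a heparan sulfate sulfotransferase, had 6.08, 8.16 and 8.84 CPM in KO cultures, against 17.8, 14.1, 14.04 and 13.99 CPM in WT cultures (-0.96 ± 0.22), and the zinc-finger gene Zfp131 had 168, 155 and 198 CPM in KO cultures, against 276, 209, 385 and 294 CPM in WT cultures (-0.74 ± 0.19). Their groups did not overlap, but leaving out 1 library ended the call of Hs3st3b1 without KO 1, 2 and 3, WT 1 (-1.07 to -0.81) and of Zfp131 without KO 1, 2 and 3, WT 1, 3 and 4 (-0.85 to -0.58). Mid1, a microtubule-associated ubiquitin ligase named after its values were seen, held 12, 16 and 6 estimated counts in KO, against 35.1, 104, 29.0 and 78.1 in WT (log2 fold change -2.54, edgeR adjusted p = 0.00312). Mid1 lies at 169685199 to 170005736 on the X chromosome, beside the predicted gene Gm21887 (170009659 to 170019281). Gm21887 was also called lower (-3.51 ± 0.73, edgeR adjusted p = 0.00939), a call that ended without KO 1 and 2, WT 1. Whether this locus itself differed between the animals was not tested. The kynurenine pathway enzyme Haao was low in both genotypes, at 0.4502, 0.989 and 0.842 CPM in KO cultures, against 1.86, 3.303, 4.68 and 5.38 CPM in WT cultures (-2.28 ± 0.42), and its call ended without KO 1 (-2.02). Without DFMO, Haao stood much higher in Th17n cultures, at 20.6 ± 4.33 CPM in KO and 26.1 ± 1.95 CPM in WT (-0.32 ± 0.20). The difference of these effects, -1.95 ± 0.47, did not pass (edgeR adjusted p = 0.0785).

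Most core programmes held no called gene, where 1.02% of all tested genes were called. At so small a share a list this short can hold none, so an empty list says little about its programme. The polyamine list had 0 of 20 called, with a median of 0.0092. Odc1, the target of DFMO, had 135, 157 and 188 CPM in KO cultures, against 147, 115, 153 and 201 CPM in WT cultures (0.06 ± 0.14), and Srm, the spermidine synthase, had 344, 384 and 424 CPM in KO cultures, against 377, 317, 441 and 427 CPM in WT cultures (-0.02 ± 0.16). Both overlapped between genotypes. The member of smallest p was Oaz2, an antizyme that turns over ornithine decarboxylase, at 36.5, 35.6 and 37.05 CPM in KO cultures, against 21.2, 25.3, 22.1 and 27.4 CPM in WT cultures (0.60 ± 0.18, edgeR adjusted p = 0.118); the groups stood apart but it did not pass. None was called of 39 DNA replication genes (median 0.086, smallest p in Rpa2, 0.25 ± 0.10), 25 genes of the G2 and M phases (Tpx2, -0.20 ± 0.10), 33 of ribosome biogenesis (Polr1c, -0.23 ± 0.10), 22 of the TCA cycle (Pcx, 0.41 ± 0.13) and 33 nuclear genes of oxidative phosphorylation (Cox5a, -0.12 ± 0.09). The same held for 13 genes of the mitochondrial genome (mt-Nd4l, -0.53 ± 0.41), 23 of cholesterol synthesis, 12 heat shock genes (Hspa9, -0.18 ± 0.09), 19 of NRF2 and redox control (Mt1, 0.44 ± 0.15) and 14 of MHC class II presentation (H2-Eb1, -1.596 ± 0.53). Of 29 interferon-stimulated genes none was called, with 19 estimates above 0 (median 0.21), and Gbp2, an interferon-induced GTPase, had 166, 138 and 150.5 CPM in KO cultures, against 90.9, 63.9, 108 and 55.2 CPM in WT cultures (0.94 ± 0.28, edgeR adjusted p = 0.121). In glycolysis 1 of 23 rose, the aldolase isoform Aldoc, with 45.9, 48.98 and 46.5 CPM in KO cultures, against 28.6, 30.4, 25.5 and 29.6 CPM in WT cultures (0.72 ± 0.16), a call that ended without KO 1, 2 and 3, WT 1 and 3 (0.67 to 0.74). In all, 36 of the 112 called genes belonged to a pathway list, 19 of 36 pathway lists held a called gene and 17 held none.

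The genotype difference under DFMO was set against that of the same animals' Th17n ctrl cultures by testing the difference of the log2 fold changes. By edgeR 36 genes were called (0.328% of tested genes), 4 higher and 32 lower, and with the animal as a block 57 were (10 higher, 47 lower). Of the 112 genes called under DFMO, 3 were among the 36: Ly6g, Plac8 and Olfr1033. Ly6g was at 104 ± 28.9 CPM in KO and 46.1 ± 14.8 CPM in WT without DFMO (log2 fold change 1.17 ± 0.24), levels far above those under DFMO, and the difference of effects was 4.29 ± 0.63 (edgeR adjusted p = 0.00221). Plac8 stood at 9.56 ± 0.389 CPM in KO and 14.1 ± 4.397 CPM in WT without DFMO (-0.56 ± 0.31), so the sign was opposite there (difference 2.46 ± 0.42, edgeR adjusted p = 0.00434). Olfr1033 was level between the genotypes without DFMO, at 166 ± 17.6 CPM in KO and 159 ± 32.1 CPM in WT (0.06 ± 0.14), and its difference of 0.97 ± 0.20 (edgeR adjusted p = 0.0176) lost the call in 6 of the 14 fits that left out 1 library of either culture (0.85 to 0.96). Those were the fits without Th17n ctrl WT 2 or KO 3, or Th17n DFMO WT 1 or 3 or KO 1 or 3. For the other 109 genes a difference between the cultures was not shown. Of the 112 genes, 105 had the same sign without DFMO, as did 60.0% of all tested genes.

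Several genes had effects of the same sign in both cultures. Ecm1 was 2.08 ± 0.24 under DFMO and 1.21 ± 0.20 without, and Cd101 1.599 ± 0.33 under DFMO and 1.34 ± 0.29 without. On the lower side, Cd44 was -1.19 ± 0.17 under DFMO and -0.74 ± 0.17 without, Ikzf2 -1.61 ± 0.32 and -1.51 ± 0.38, and Cd200 -0.79 ± 0.09 and -0.66 ± 0.09. No difference of these effects passed (edgeR adjusted p = 0.438 to 0.989), which does not show that the effects were equal. Slamf6 was 1.46 ± 0.25 under DFMO and -0.26 ± 0.36 without, and Emb 0.62 ± 0.10 and 0.15 ± 0.10. Cd28 was 0.49 ± 0.09 under DFMO and 0.05 ± 0.10 without, Icos 0.52 ± 0.12 and 0.01 ± 0.12, and Tcf7 0.43 ± 0.10 and 0.03 ± 0.10. In these 5 genes the estimate without DFMO was nearer to 0, or of the other sign in Slamf6, and the difference did not pass (edgeR adjusted p = 0.0919 to 0.419). Inhba was -0.75 ± 0.18 under DFMO and 0.36 ± 0.21 without (difference -1.12 ± 0.27, edgeR adjusted p = 0.0869).

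Against iTreg cultures under DFMO, which lack IL-6, 21 genes had a genotype effect that differed from that in Th17n DFMO cultures by edgeR (0.191% of tested genes, 10 higher and 11 lower), and with the animal as a block 46 did (25 higher, 21 lower). The main count was 11 without Th17n DFMO KO 1 and 10 without iTreg DFMO KO 2. Of the 112 genes 6 were among the 21. Gpr18 was at 29.1 ± 8.53 CPM in KO and 38.3 ± 8.47 CPM in WT in iTreg cells (-0.41 ± 0.17), against the rise of 0.92 ± 0.15 in Th17n cells (difference 1.33 ± 0.22, edgeR adjusted p = 0.00322). Gpr83 showed the reverse, lower in Th17n KO cells but at 91.8 ± 5.35 CPM in KO and 59.1 ± 8.21 CPM in WT in iTreg cells (0.64 ± 0.13; difference -1.20 ± 0.17, edgeR adjusted p = 0.000554). Haao (0.78 ± 0.33 in iTreg, difference -3.05 ± 0.54, edgeR adjusted p = 0.00484) and Foxp1 (0.25 ± 0.12 in iTreg, difference -0.76 ± 0.17, edgeR adjusted p = 0.0466) likewise had opposite signs. Klf6 was lower in KO in both, and by more in iTreg cells, at 93.9 ± 11.5 CPM in KO and 228 ± 32.4 CPM in WT (-1.28 ± 0.11; difference 0.69 ± 0.15, edgeR adjusted p = 0.0466). Gimap4 differed by 0.68 ± 0.15 (edgeR adjusted p = 0.0466), with -0.16 ± 0.11 in iTreg cells.

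The differences of Foxp1, Klf6 and Gimap4 were close to the threshold and lost the call without 1 library in 7, 12 and 12 of 14 fits (-0.76 to -0.65, 0.60 to 0.75 and 0.60 to 0.71), while those of Gpr18, Gpr83, Haao and Gbp2 kept it in all 14. Foxp1 lost it without Th17n DFMO KO 1 or 2, WT 3 or 4, and without iTreg DFMO KO 2 or 3 or WT 1. Klf6 kept it only without iTreg DFMO KO 3 or WT 2, and Gimap4 only without iTreg DFMO WT 3 or 4. Gbp2, not called in Th17n cells, was -1.81 ± 0.30 in iTreg cells, at 52.2 ± 28.4 CPM in KO and 180.2 ± 49.03 CPM in WT, and the difference was called (2.75 ± 0.41, edgeR adjusted p = 0.000554). Cd44 (-1.68 ± 0.17), Atf3 (-1.82 ± 0.18), Plk2 (-1.44 ± 0.14), Cd200 (-1.23 ± 0.09), Ikzf2 (-1.65 ± 0.25) and Ecm1 (1.96 ± 0.41) had iTreg estimates of the same sign as in Th17n cells, and no difference in them passed. Of the 112 genes 95 had the same sign in iTreg DFMO cultures, as did 61.2% of all tested genes, and 85 in iTreg ctrl cultures, as did 55.8% of all.

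**Figure D5:**
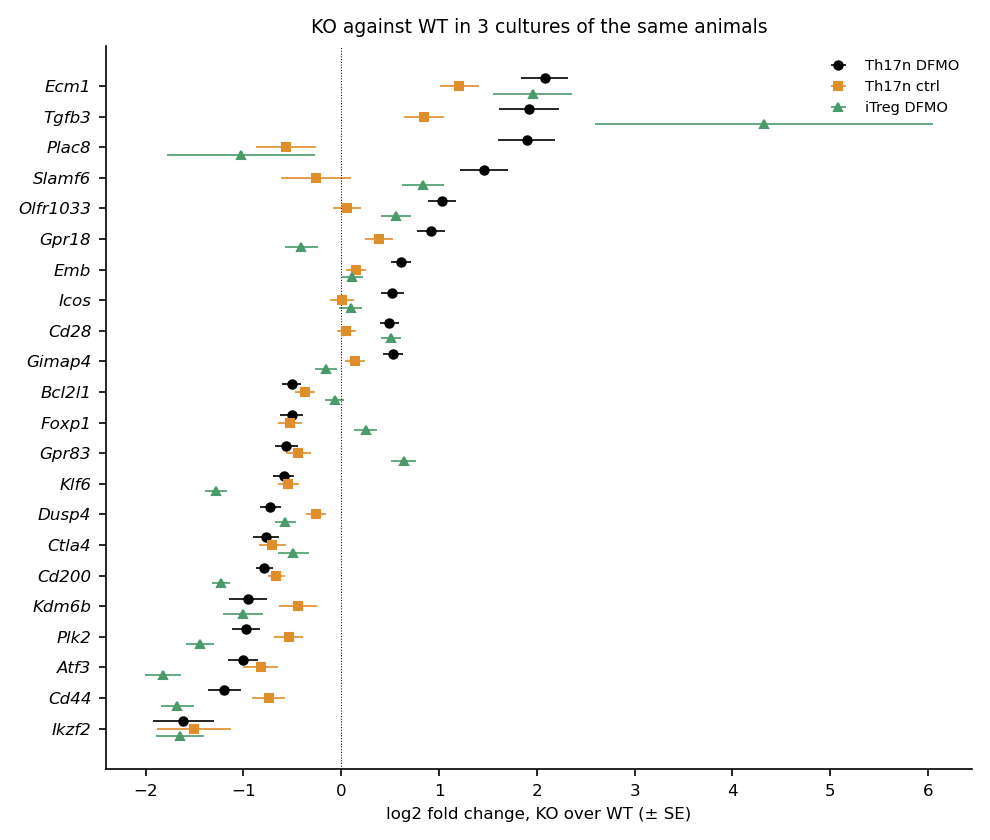
Log2 fold change of KO over WT ± SE (horizontal axis) of 22 named genes (rows) in Th17n DFMO (black circles), Th17n ctrl (orange squares) and iTreg DFMO cultures (green triangles) of the same 7 animals. Gpr18 lies at 0.92 in Th17n DFMO and -0.41 in iTreg DFMO cultures, Gpr83 at -0.56 and 0.64, and Plac8 at 1.90 in Th17n DFMO and -0.56 in Th17n ctrl cultures, while Ikzf2 and Cd44 lie on the lower side in all 3.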

How the data were processed

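RNA was measured in 28 libraries of paired 75 bp reads, and those of Th17n DFMO cultures are reported here. The authors deposited an estimated count and a TPM value for each of 20891 genes, both made by kallisto on GRCm38, as stated in the submitters' processing notes, in which no kallisto version was found. Among estimated counts, 67.19% are whole within 0.001, and the deposited TPM sum to 863920 to 886579 per library. Symbols and positions came from GENCODE M21 (20837 genes matched). Estimated counts were rounded and fitted in edgeR 4.0.16 (R 4.3.3) as 8 group means over 28 libraries, with TMM scaling and edgeR's filter on low counts (10985 genes), which left 20 residual degrees of freedom, a median prior of 9.24 and a common dispersion of 0.0182. P-values were adjusted by Benjamini-Hochberg over all tested genes, and genes under 0.05 were called. Standard errors of log2 fold changes came from the quasi-likelihood F. Alternatives were RLE scaling, no filter, DESeq2 1.42.0, limma 3.58.1 on log2(TPM + 1) and log2(TPM + 0.1), a fit of the 7 libraries, blocks, and omission of each library or animal. The animal labels pair the cultures of 1 animal, so the differences of effects between cultures were also fitted with the animal as a block; deviations of an animal's paired cultures correlated at -0.0325 to 0.242. Precision is limited by 3 and 4 animals and by 3590879 to 4732039 counts per library. The main edgeR fit took the 28 libraries as independent, although 7 animals gave them. Its p-values measure the spread between libraries of a group, pooled over the 8 groups, and not only the spread between animals in Th17n DFMO cultures. Genes always named were Kdm6b, Kdm6a, Ezh2, Odc1, Srm, Il17a, Il17f, Il23r and Foxp3; a few others of the rule are not reported here. The rule added the 15 largest called changes each way with a mean of at least 10 CPM and no overlap, up to 6 called members of each list or else the member of smallest p, and called genes whose effect differed between cultures. Ccr7, S1pr1, Il7r, Pdcd1, Rora, Ccr6, Atf4, Ddit3 and Trib3 were named outside it, after their values were seen. Members, the 36 pathway lists, the 11 marker lists (934 of 955 entries in the files) and tests were chosen with earlier results of these data known. Promoter windows are from RefSeq. No source states stranded counting, so reads of antisense or overlapping genes may mix.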

Additional observations from a re-analysis of the deposited data

Results flagged for a closer look

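In 81 groups of 4 WT libraries checked, 6 held a library far from the other 3, where chance gives about 1 in 20. In the WT libraries of Th17n DFMO cultures, Gpr18 had 1 low library at 32.3 CPM with the others at 48.1 to 49.0 CPM, and Kdm5d, a Y-linked histone demethylase gene, had 1 at 7.02 CPM with the others at 11.03 to 11.7 CPM. The Y-linked genes Ddx3y, Eif2s3y and Uty averaged 0.19, 0.30 and 1.40 CPM in these WT libraries, and the X-linked Kdm5c 54.3 CPM. Whether reads of Kdm5c counted toward Kdm5d was not tested. A single high library was found for Socs3 (241 CPM, others 197 to 204 CPM), Hs3st3b1 (17.8 CPM, others 14.0 to 14.1 CPM), Ccl5 (1.30 CPM, others 0.265 to 0.440 CPM) and Pagr1a (1.04 CPM, others 0 CPM). Pagr1a was not called, with 15.3, 0 and 14.5 CPM in KO, from 68.5, 0.000122 and 68.8 estimated counts, so that 1 KO library read as empty between a pair of high ones. In Kdm6b the lowest WT library (36.0 CPM, against 55.1 to 64.0 CPM in the other 3) did not meet that criterion.

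The genotype effect differed between cultures in 10 of the named genes, by the interaction term of the edgeR fit. Against Th17n ctrl cultures, the effect under DFMO was larger by 4.29 in Ly6g, by 2.46 in Plac8 and by 0.97 in Olfr1033, on the log2 scale. Against iTreg DFMO cultures the difference was 1.33 in Gpr18, 2.75 in Gbp2, 0.69 in Klf6 and 0.68 in Gimap4, and -1.20 in Gpr83, -0.76 in Foxp1 and -3.05 in Haao. Their values by culture and adjusted p are given with those comparisons above.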

How the results depend on the processing

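Counts of called genes moved more than the genes' directions. In KO against WT under DFMO, 71 genes were higher and 41 lower; RLE scaling gave 68 and 42, DESeq2 87 and 57, only the 7 Th17n DFMO libraries 68 and 56, and voom with the animal as a random effect 72 and 46. Larger moves came with no filter (121 and 109), log2(TPM + 1) (25 and 21) and log2(TPM + 0.1) (19 and 17). Of the 112 genes, 109 were also called by DESeq2 and 42 on log2(TPM + 1). Only 86 of them were among the 124 called in the fit of the 7 libraries, and 96 among the 118 of voom, so like counts hold partly different genes. Genes described above that were not called on log2(TPM + 1) include Timd2 (limma adjusted p = 0.213), Hs3st3b1 (limma adjusted p = 0.128) and Rgs2 (limma adjusted p = 0.0655). Leaving out 1 library or animal gave 17 to 96 genes higher and 7 to 63 lower; without KO replicate 1 these were 17 and 11, and without KO animal 1 in all cultures 17 and 7. A replicate block on the number that KO and WT share gave 168 and 164 on the 7 libraries. The labels used here do not say that same-numbered KO and WT animals belong together. Deviations of same-numbered libraries correlated at 0.149, 0.0231 and 0.138. For KO 1 and KO 2 no other WT number correlated more, and KO 3 stood at 0.139 with WT 4. The lowest correlations were -0.153 (KO 1 with WT 4) and -0.164 (KO 3 with WT 1). Whether a batch or an order of handling goes with the numbers was not tested. The difference from Th17n ctrl called 36 genes, against 132 with no filter, 68 by DESeq2, 9 and 0 on log2(TPM + 1) and log2(TPM + 0.1), 57 with the animal as a replicate block and 19 to 35 with 1 library left out. The difference from iTreg DFMO called 21 genes, against 99 with no filter, 48 by DESeq2, 46 with that block and 10 to 30 with 1 library left out. Signs turned only in genes that were never called: Odc1 (0.06, range -0.083 to 0.21; -0.065, -0.079, -0.067 and -0.083 with 1 library or animal left out), Srm (range -0.11 to 0.055; 0.026 with the replicate block, and 0.040, 0.022, 0.046, 0.038, 0.019 and 0.055 with 1 left out) and Il23r (range -0.12 to 0.12; -0.015 with the block, and -0.095, -0.029, -0.12, -0.095, -0.032 and -0.12 with 1 left out). The difference in mitochondrial share, -0.067 percentage points, ranged from -0.194 to 0.123 and was 0.068 without KO replicate 1 and 0.123 without WT replicate 4. That in total count ranged from 248170 to 651560 and that in detected genes from 212 to 415. Called genes with under 10 CPM, such as Ccl5 and Haao, rest on few counts, and depth limits their size. The cause of these moves was not tested, except that no filter adds genes to the test and omission removes a library.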

Other observations

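Of the 112 called genes 76 stood in no pathway list, and some encode regulators of lymphocytes; those below were named after their values were seen. Higher in KO were Ets1, a transcription factor of T cells, at 584 ± 60.7 CPM in KO and 435 ± 44.99 CPM in WT (SD, n = 3 and 4; log2 fold change 0.42 ± 0.11), Txk, a Tec family kinase of T cells, at 18.5 ± 0.345 CPM in KO and 9.87 ± 3.46 CPM in WT (0.90 ± 0.21), and Pik3cg, the catalytic subunit of phosphoinositide 3-kinase gamma, at 29.1 ± 3.499 CPM in KO and 15.9 ± 2.505 CPM in WT (0.87 ± 0.18). Receptors for migration and cytokine signals among them were Gpr183, which binds oxysterols, at 37.9 ± 4.01 CPM in KO and 21.1 ± 4.67 CPM in WT (0.84 ± 0.21), and Ifngr1, the interferon-gamma receptor, at 66.8 ± 6.05 CPM in KO and 46.7 ± 3.37 CPM in WT (0.51 ± 0.11). Pik3ip1, an inhibitor of phosphoinositide 3-kinase, was at 19.98 ± 3.08 CPM in KO and 12.98 ± 1.93 CPM in WT (0.62 ± 0.16). Lower in KO were Axl, a receptor tyrosine kinase, at 56.7 ± 2.08 CPM in KO and 94.2 ± 9.85 CPM in WT (-0.73 ± 0.16), Irf5, an interferon regulatory factor, at 8.83 ± 1.96 CPM in KO and 14.7 ± 0.891 CPM in WT (-0.74 ± 0.18), and Bcat1, a branched-chain amino acid transaminase, at 216 ± 7.58 CPM in KO and 293 ± 20.8 CPM in WT (-0.44 ± 0.09). All were called by edgeR (adjusted p = 0.00947 to 0.0445) with genotypes that did not overlap, and leaving out 1 library ended the call of Ets1 without KO 1 and 2, WT 1, 3 and 4 (0.36 to 0.42), of Txk without KO 1, 2 and 3, WT 1 and 3 (0.70 to 0.91), of Pik3cg without KO 1 or WT 1 (0.77 to 0.81), of Gpr183 without KO 1, 2 and 3, WT 1, 3 and 4 (0.72 to 0.92), of Ifngr1 without KO 1, 2 and 3, WT 1 and 4 (0.44 to 0.57), of Pik3ip1 without KO 1, 2 and 3, WT 1, 2, 3 and 4 (0.49 to 0.71), of Axl without KO 1, 2 and 3 (-0.76 to -0.71), of Irf5 without KO 1 and 3, WT 1, 2, 3 and 4 (-0.78 to -0.60) and of Bcat1 without KO 1 and 3, WT 1 (-0.44 to -0.39).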
